A study of Mus musculus with 24 samples.

Results

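Solute carriers are the membrane proteins that move amino acids, sugars, ions, metals and metabolic intermediates into and out of cells and organelles. They were taken here as all clones whose platform symbol begins with Slc and a digit, without the Slc27a family and Slc4a1. This gave 248 of the 20794 clones of the array, which stand for 186 of 9030 gene symbols. By family they were divided into 37 amino acid carriers (Slc1, Slc3, Slc6, Slc7, Slc38 and Slc43), 8 facilitative sugar carriers (Slc2, called glucose carriers here), 22 mitochondrial carriers (Slc25) and 119 others, of which 3 symbols (Slc9a3r1, Slc9a3r2 and Slc4a1ap) name partner proteins and not carriers.

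Brain, heart and muscle RNA of 4 male Eya3-/- mice aged 13 weeks, named W, X, Y and Z here, was hybridised against wild-type RNA pooled from the matching organ of males of equal age. The mutants are homozygous for a gene trap with a lacZ cassette in an intron of Eya3, made in Sv129S2 embryonic stem cells, and are predominantly C57BL/6 by background. For each organ of a mouse there were 2 arrays with exchanged dyes, so that 24 arrays were used, 8 for an organ. The wild-type side was a pool, for which the labels give differing numbers of animals, and an animal number range listed for it includes those of mice W and X, so its composition is not certain. The question was which transcripts differ between the homozygous mutants and the wild type in each organ.

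Eya proteins are transcriptional co-activators that bind homeodomain proteins of the sine oculis family, and these bind a short DNA element known as MEF3. In the brain, carriers of the Slc1 and Slc6 families clear neurotransmitters from the synapse, Slc2 proteins bring in glucose, and Slc12 cotransporters set neuronal chloride. In heart and skeletal muscle, insulin-responsive glucose uptake, creatine and carnitine uptake and the exchange of phosphate and nucleotides across the inner mitochondrial membrane all run through solute carriers.

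All values are log2 ratios. They were taken as Eya3-/- over the wild-type pool, a direction that is likely from part of the data but is not stated in the sources used here. Missing spots made up 4.75% to 24.5% of an array, array medians ran from -0.26 to 0.14, and the 2 arrays of a mouse were averaged. The clone of Eya3 itself had a value on 4 of 8 brain arrays, 6 of 8 heart arrays and 3 of 8 muscle arrays. It was measured on both arrays in 0 brain, 2 heart and 0 muscle samples (0.02 in mouse W and -0.38 in mouse Y), so the genotype could not be checked on it. Since each value is a ratio, the identity of an organ could not be read from its markers. Their ratios had medians of -0.23 for 4 neuronal markers in brain, 0.03 for 6 cardiomyocyte markers in heart and -0.12 for 6 markers of skeletal muscle fibres in muscle, where 5 of the 6 lay below 0 and the cardiomyocyte markers had -0.29. For 2 red cell markers the medians in brain and in heart were both -0.53, and that in muscle was 0.31, with mouse W at 1.46 and mouse Z at -1.16. The part of these cells in the values below was not tested, and in whole organs fewer cells of a type cannot be told apart from less RNA per cell.

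A carrier was tested in an organ if both arrays gave a value for 3 or more of the 4 mice. This held for 155 carriers in brain, 155 in heart and 147 in muscle, and for 124 in all 3 organs. Values in only 1 or 2 mice were left for 26, 28 and 35 carriers, and 5, 3 and 4 had none. In all, 8 carriers were tested in no organ.

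No solute carrier was called in any organ by limma at an adjusted p under 0.10. The same was true of all 13501 features tested in brain, 13831 in heart and 13098 in muscle (0% called in each). The lowest adjusted p of a carrier was 0.546 for brain, 0.818 for heart and 0.953 for muscle. Without adjustment, 17 of 155 carriers had p under 0.05 in brain, beside 8.7% of all features. Of these, 10 lay above the pool (5.18% of all features did) and 7 below it (3.52%). In heart there were 8 of 155 (5.03% of all features), 4 above (2.24%) and 4 below (2.79%), and in muscle 7 of 147 (3.42%), 5 above (2.07%) and 2 below (1.35%). Leaving out mouse W, X, Y or Z in turn gave counts of 14, 12, 11 and 8 in brain. The heart counts were 7, 5, 8 and 9, and the muscle counts 1, 4, 6 and 2. The shares of all features in these fits were not counted, and fits on fewer mice can detect less in any feature.

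Taken over all carriers, the ratios centred close to 0. Brain had a median of -0.03 (-0.01 over all features), heart 0.02 (0.01) and muscle -0.06 (0.01). In brain 84 of 155 carriers had a mean below 0, beside 50.9% of all features, in heart 73 of 155, beside 49.0%, and in muscle 82 of 147, beside 48.1%. The muscle median differed between mice, with -0.26 in mouse W, -0.01 in X, 0.02 in Y and 0.07 in Z. Mouse W also had the 2 muscle arrays with the most missing spots, and the muscle median without it was -0.01.

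Of the carriers with values in all 4 mice of an organ, 15 of 134 lay above 0 in every mouse and 21 of 134 below 0 in every mouse in brain. The shares of all features were 10.1% and 14.2%. In heart 12 and 10 of 122 did so (9.08% and 7.76% of all features), and in muscle 10 and 6 of 106 (6.86% and 4.71%). Of the 82 carriers with values in all 12 samples, 0 kept 1 sign throughout. Mean ratios were within 0.5 of 0 for 114 of 155 carriers in brain, 126 of 155 in heart and 117 of 147 in muscle.

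**Figure D1:**
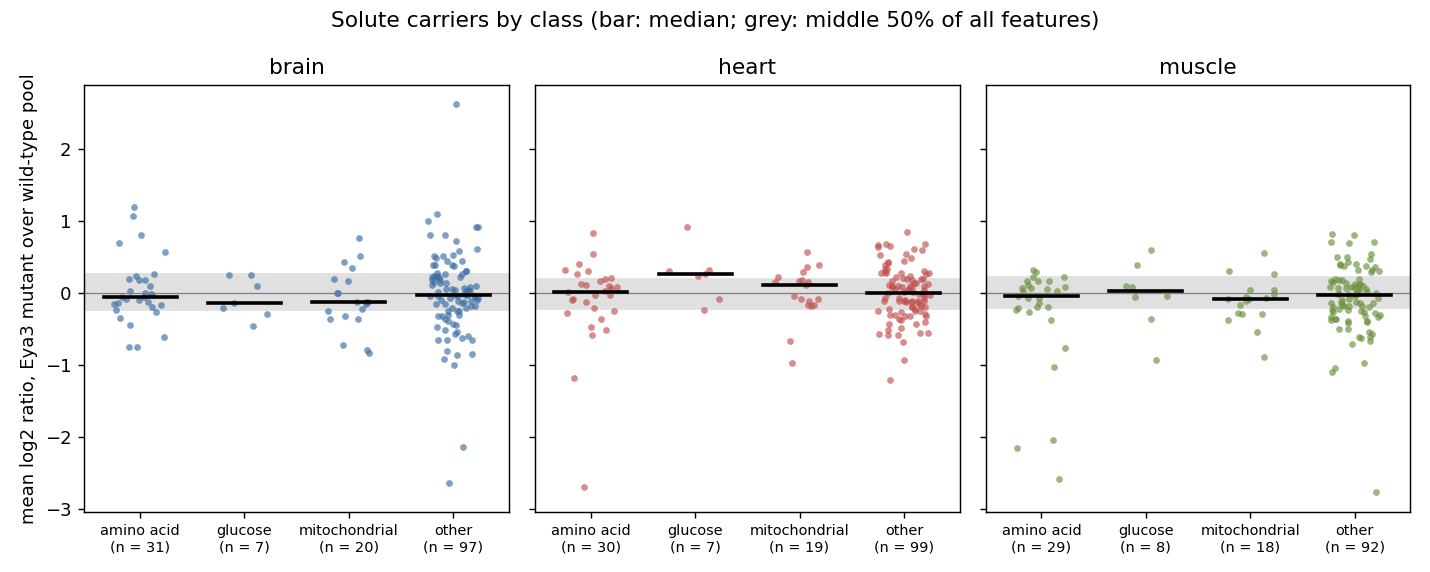
Mean log2 ratio (Eya3-/- over wild-type pool) of every tested carrier, 1 point per carrier, by class in brain, heart and muscle; black bars are class medians and the grey band holds the middle 50% of all features. The medians lie between -0.13 and 0.27, and most points fall near the grey band in each organ.

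Amino acid carriers were tested for 31, 30 and 29 genes in brain, heart and muscle. The class medians were -0.05, 0.02 and -0.04 in this order of organs, and 18, 14 and 15 genes had a mean below 0. Here and below, the highest and lowest carrier of a class is the one among those with values in all 4 mice. In brain 4 of 31 had an unadjusted p under 0.05, 3 above and 1 below the pool (8.7% of all features had such a p). In heart it was 2 of 30, both below (5.03%), and in muscle 0 of 29 (3.42%). The class as a whole did not stand to one side of 0 in any organ.

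Both glutamate carriers of astrocytes, which clear the transmitter from the synapse, had brain intervals that held 0. Slc1a2, the main glutamate carrier of astrocytes, had 0.07, -0.12, 0.07 and -0.35 in mice W to Z, with a mean of -0.08 ± 0.20 (SD, n = 4 mice, 95% interval -0.47 to 0.32, adjusted p = 0.854 by limma). Slc1a3, the second astrocyte carrier, had -0.24, -0.25, -0.02 and -0.52, with a mean of -0.25 ± 0.20 (interval -0.65 to 0.14, adjusted p = 0.586). Slc1a3 was below 0 in each mouse, through -0.65 with the mutant in Cy5 and 0.14 with it in Cy3, while Slc1a2 was above 0 in 2 mice and below in 2. Slc1a1, the neuronal glutamate carrier, averaged -0.13 ± 0.24, and Slc1a6, the carrier of cerebellar Purkinje cells, was the lowest amino acid carrier of the brain with -1.28, -0.59, -1.50 and 0.38. Mouse Z lay on the other side of 0 from the 3 other mice for Slc1a6, whose interval ran from below 0 to above it (unadjusted p = 0.0872, adjusted p = 0.549 by limma).

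Slc38a5, a glutamine carrier, was the highest amino acid carrier of the brain. It had 0.83, 0.68, 2.30 and 0.98 in mice W to Z, a mean of 1.20 ± 0.75 or 2.30-fold the pool (interval 0.39 to 2.01, adjusted p = 0.546 by limma). All 4 mice lay above the pool, mouse Y far above the others, and the means on the 2 dye orientations were 1.30 with the mutant in Cy5 and 1.10 with it in Cy3. In heart the same clone had 0.56, 0.40 and 1.54 in the 3 mice measured. In muscle it had -6.43, 0.40 and -0.10, and the first of these comes from mouse W, where 1 spot was beyond 10 in size.

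Slc6a8, the creatine carrier, was below the pool in every mouse of brain and heart. Its brain values were -0.28, -0.26, -0.85 and -0.36 (mean -0.44 ± 0.28, adjusted p = 0.546 by limma), and its heart values were -0.08, -0.64, -0.50 and -0.67 (mean -0.47 ± 0.27, adjusted p = 0.818). In muscle the values were -0.33, 0.01, 0.27 and -0.20, on both sides of 0. The heart mean came from the arrays with the mutant in Cy3, which averaged -1.21, whereas those with the mutant in Cy5 averaged 0.26. The brain arrays differed in the same direction. They lay between -1.108 and -0.481 with the mutant in Cy3, and between -0.588 and 0.059 with it in Cy5.

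The other amino acid carrier with an unadjusted p under 0.05 in heart was Slc7a10, a carrier of small neutral amino acids and D-serine. It had -0.71, -0.77, -0.73 and -0.13 in heart (mean -0.59 ± 0.30, adjusted p = 0.818 by limma). It was below 0 in each heart and had both signs in brain and in muscle. Slc7a1, the cationic amino acid carrier, averaged -0.52 ± 0.15 over 3 hearts and 0.18 ± 0.19 over 4 muscles. The highest amino acid carrier of the heart was Slc1a5, a carrier of glutamine and other neutral amino acids, at 0.55 ± 0.47. It averaged 0.69 ± 0.59 in brain and 0.07 ± 0.58 in muscle. These means mix 2 clones. In heart 1 clone, measured in all 4 mice, lay between -0.397 and 0.676 on its arrays. The second entered only in mouse W (0.174 and 2.45 on its 2 arrays) and mouse Z (1.045 and 2.912). In brain the first clone lay between -0.475 and 0.452, and the second entered only in W, Y and Z.

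Slc3a2 and Slc7a5, the chains of the large neutral amino acid carrier, stayed near the pool. In brain Slc3a2 averaged -0.19 ± 0.15 and Slc7a5 -0.23 ± 0.10, each at or below 0 in all 4 mice, with intervals of -0.56 to 0.18 and -0.59 to 0.13. In heart Slc7a5 had -0.18, -0.13, 0.10 and 1.44, so that mouse Z alone set the mean of 0.31. Slc38a2, a widely expressed alanine and glutamine carrier, was the lowest amino acid carrier of the heart at -1.18 ± 2.19. Its heart values were -0.16, -4.44, -0.39 and 0.27, and the value of mouse X contains a spot of -17.13. With values beyond 10 taken as missing, its heart mean was -0.65. Slc6a20b, a relative of the imino acid carrier Slc6a20a, was the lowest in muscle in the same way, with -10.02 in mouse W beside -0.75, 0.11 and 0.33, and a mean of -0.10 once such values were left out. Slc38a4, which carries neutral and cationic amino acids, was the highest in muscle at 0.32 ± 0.48.

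Promoters of the carriers were searched for the core of the MEF3 element, TCAGGTT, on both strands (its reverse complement is AACCTGA), in windows of 300 bases around RefSeq gene starts in build GRCm38.p6. Windows were found for 148 of the 186 symbols. The core was in 10 of their 200 windows (5.0%), beside 1337 of 32851 windows of all genes (4.07%). The 10 genes were Slc1a3, Slc38a4, Slc4a8, Slc12a8, Slc24a3, Slc25a16, Slc25a25, Slc37a2, Slc39a11 and Slc44a2. Of these, the windows of the amino acid carriers Slc1a3 and Slc38a4 are given as examples in the direction of the gene, with the core in capitals at base 260 of the window (reverse complement, on the minus strand of chr15:8710758-8711057) and at base 154 (as given, on the minus strand of chr15:97055907-97056206).
Slc1a3: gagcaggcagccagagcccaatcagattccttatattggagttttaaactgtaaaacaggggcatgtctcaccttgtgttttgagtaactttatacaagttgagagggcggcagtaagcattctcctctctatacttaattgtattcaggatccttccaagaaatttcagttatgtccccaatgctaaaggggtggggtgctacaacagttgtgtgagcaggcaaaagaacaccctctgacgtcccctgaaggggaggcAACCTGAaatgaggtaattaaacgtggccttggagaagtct
Slc38a4: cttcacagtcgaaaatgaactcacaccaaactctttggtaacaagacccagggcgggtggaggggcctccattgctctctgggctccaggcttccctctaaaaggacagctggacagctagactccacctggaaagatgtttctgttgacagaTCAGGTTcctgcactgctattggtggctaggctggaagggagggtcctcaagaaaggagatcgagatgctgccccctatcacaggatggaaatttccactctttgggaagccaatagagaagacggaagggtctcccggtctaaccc
The ratios of the 10 genes had medians of -0.13 in brain (9 tested, 7 below 0), -0.07 in heart (7 tested, 5 below 0) and -0.07 in muscle (9 tested, 5 below 0). A match is a description of the letters in a window and does not show binding.

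Glucose carriers were tested for 7, 7 and 8 genes. Brain had a median of -0.13, heart 0.27 and muscle 0.03, and 4, 2 and 4 genes lay below 0. In heart 3 of the 7 were above 0 in all 4 mice (9.08% of all features were), and in brain 0 of 6. Only Slc2a3 in heart had an unadjusted p under 0.05 by limma, beside 5.03% of all features in that organ.

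Slc2a3, the neuronal glucose carrier, had -0.07, -0.08, -0.78 and -0.24 in brain and 1.77, 0.34, 1.28 and 0.31 in heart. The brain mean was -0.29 ± 0.33 (interval -0.77 to 0.18) and the heart mean 0.92 ± 0.72 or 1.90-fold the pool (interval 0.14 to 1.71, adjusted p = 0.818 by limma). All hearts lay above the pool and all brains below it, with no overlap. Such separation was seen for 8 of 137 carriers between these organs, and its share over all features was not counted. The heart mean was 0.22 with the mutant in Cy5 and 1.63 with it in Cy3. In muscle the 3 mice measured had -3.18, 0.23 and 0.15.

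Slc2a4, the insulin-responsive glucose carrier of heart and muscle, had 0.30, 0.40, 0.25 and 0.33 in heart, a mean of 0.32 ± 0.06 (interval -0.05 to 0.69, adjusted p = 0.818 by limma). The 4 hearts lay close together, while the orientations had means of 0.54 with the mutant in Cy5 and 0.09 with it in Cy3. These heart values average 2 clones that differed. On its arrays 1 lay between 0.131 and 0.837, and the other between -0.639 and 0.978. In muscle Slc2a4 had -0.45, 0.10, 0.36 and -0.24 (mean -0.06 ± 0.36, interval -0.60 to 0.49), on both sides of 0, and in brain -0.75, -0.09, 1.54 and 0.34. Slc2a5, the fructose carrier, averaged 0.27 ± 0.10 in heart and 0.40 ± 0.09 in muscle, above 0 in all 8 samples, and 0.26 ± 0.67 in brain. Its heart mean was 0.70 with the mutant in Cy5 and -0.17 with it in Cy3. This gene was chosen after its values were seen (adjusted p = 0.818 in heart and 0.953 in muscle by limma). Slc2a12 was the highest glucose carrier of muscle at 0.61 ± 1.36, through mouse X at 2.64 beside -0.04, -0.02 and -0.16. Slc2a8, an intracellular hexose carrier, was the lowest of the heart at -0.23 ± 0.54.

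Mitochondrial carriers were tested for 20, 19 and 18 genes. Brain had a median of -0.12, heart 0.12 and muscle -0.08, and 12, 9 and 13 genes lay below 0. An unadjusted p under 0.05 was reached by 1 brain carrier, 1 heart carrier and 0 muscle carriers (8.7%, 5.03% and 3.42% of all features). In heart 4 of 15 lay above 0 in all 4 mice and 1 of 15 below, beside 9.08% and 7.76% of all features.

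Slc25a3, the phosphate carrier of the inner membrane, had -0.11, -0.28, -0.21 and -0.40 in brain and 0.38, 0.03, 0.07 and 0.20 in heart. The means were -0.25 ± 0.12 (interval -0.61 to 0.11) and 0.17 ± 0.16 (interval -0.22 to 0.56), and the muscle mean was -0.10 ± 0.19. Brain and heart did not overlap for this gene, yet neither interval left out 0, and the means turned with the dye (0.12 with the mutant in Cy5 and -0.63 with it in Cy3 for brain, 0.72 and -0.38 for heart). Slc25a5, an adenine nucleotide carrier, averaged 0.43 ± 0.45 in brain, 0.22 ± 0.35 in heart and -0.27 ± 0.53 in muscle, and Slc25a11, the oxoglutarate carrier, -0.15 ± 0.33, 0.18 ± 0.17 and -0.29 ± 0.48. Both had mice on either side of 0 in every organ.

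Slc25a1, which exports citrate from mitochondria, had 0.57, 0.68, 0.13 and 0.71 in brain, a mean of 0.52 ± 0.27 or 1.44-fold the pool (adjusted p = 0.546 by limma). Its muscle values were -0.16, -0.58, -0.50 and 0.07, with a mean of -0.29 ± 0.30. All brains lay above all muscles, which its choice by the lowest p between these organs favours. Slc25a44, a carrier of branched-chain amino acids, was the highest mitochondrial carrier of the heart, at 0.32, 0.51, 0.46 and 0.19 (mean 0.37 ± 0.15). Its heart values rest on differing clones. In mice X and Z only 1 clone entered, which in mouse Y had a value on 1 array alone (-2.651). In mouse Y only the other clone entered, at -0.73 and 1.659 on its 2 arrays. Slc25a33, a pyrimidine nucleotide carrier, was the lowest in brain at -0.73 ± 0.80 and in muscle at -0.54 ± 0.87. Mouse W had -1.88 in brain and mouse Z -1.39 in muscle. Its 2 clones differed. In muscle 1 averaged -1.36 ± 1.98 over 3 mice and the other -0.03 ± 0.13 over 4 mice. In the brain of mouse W the first read -6.29 and -1.21 on its 2 arrays, the other -0.11 and 0.11.

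Some mitochondrial means rested on 1 mouse. Slc25a41, an ATP-Mg/phosphate carrier, was the highest in brain at 0.77 ± 1.57 through mouse W at 3.11, while the 3 other mice lay at -0.25, 0.07 and 0.16. Slc25a46, a protein of the outer membrane, was the lowest in heart at -0.97 ± 2.43 through mouse Y at -4.57, where 1 of its 3 clones read -17.03, and its mean was 0.10 with values beyond 10 taken as missing. Slc25a35 was the highest in muscle at 0.56 ± 0.61, with 1.47 in mouse Z beside 0.30, 0.26 and 0.20. In mouse Z 1 of its clones had 0.49, and the other, with values in 2 mice only, had 2.46.

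Among the other carriers, 12 of 97 in brain, 4 of 99 in heart and 7 of 92 in muscle had an unadjusted p under 0.05. The shares of all features were 8.7%, 5.03% and 3.42%. Their medians were -0.02, 0.01 and -0.03. By substrate group, medians in brain ran from -0.15 for 14 metal carriers to 0.52 for 5 vesicular and Slc17 carriers, in heart from -0.23 for 6 monocarboxylate carriers to 0.19 for 14 nucleotide sugar carriers, and in muscle from -0.32 for 4 vesicular and Slc17 carriers to 0.16 for 12 nucleotide sugar carriers. No group was at the same end in all 3 organs.

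Slc5a1, the sodium-glucose cotransporter, had the lowest p of all carriers in brain, with 1.39, 1.13, 0.93 and 0.25 in mice W to Z. Its mean was 0.92 ± 0.49 or 1.90-fold the pool (interval 0.33 to 1.52, unadjusted p = 0.0103, adjusted p = 0.546 by limma). It was also above the pool in every heart, at 0.58, 0.13, 0.64 and 0.61 (mean 0.49 ± 0.24, adjusted p = 0.818). Both orientations had the same sign, with brain means of 0.83 (Cy5 for the mutant) and 1.02 (Cy3) and heart means of 0.76 and 0.22. In muscle the 3 measured mice had -7.45, 0.04 and -0.89, the first with a spot beyond 10 in size.

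Metal carriers gave low p on both sides in brain. Slc39a4, a zinc importer, had 1.01, 0.59, 0.36 and 1.26 in brain (mean 0.81 ± 0.41 or 1.75-fold the pool, adjusted p = 0.546 by limma), and was below the pool in each of 3 hearts, at -0.67, -0.24 and -0.80, with 0.19 for the mutant in Cy5 and -1.32 for the mutant in Cy3. Slc41a2, a magnesium carrier, had -0.47, -0.57, -1.65 and -0.94 in brain (mean -0.91 ± 0.53 or 1.88-fold below the pool, adjusted p = 0.546). All 4 brains lay below 0 on average, but the orientations differed, with 0.08 for the mutant in Cy5 and -1.90 for the mutant in Cy3. Slc16a9, of the monocarboxylate family, had -0.24, -0.84, -0.72 and -0.81 in brain (mean -0.65 ± 0.28), with -0.49 and -0.82 on the 2 orientations.

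The chloride cotransporters known from neurons lay below the pool on average. Slc12a5, the potassium-chloride exporter of mature neurons, had -0.94, -1.62, -0.46 and -0.39 (mean -0.85 ± 0.57 or 1.81-fold below the pool, interval -1.51 to -0.20, unadjusted p = 0.0207, adjusted p = 0.546 by limma). Both dye orientations gave similar means, -0.90 with the mutant in Cy5 and -0.80 with it in Cy3. Slc12a2, the sodium-potassium-chloride importer, had -0.20, -0.26, -0.26 and -0.13 (mean -0.21 ± 0.06, interval -0.56 to 0.14), with -0.82 for the mutant in Cy5 and 0.40 for the mutant in Cy3. Both genes were below 0 in all 4 brains. All 4 tested neuronal markers had means below 0, as did 4 of 5 endothelial, 3 of 4 macrophage and 2 of 2 red cell markers. The counts were 3 of 6 for astrocytes, 2 of 5 for oligodendrocytes, 2 of 3 for choroid plexus and 3 of 5 for fibroblasts. A part of neurons in these values was not tested. Slc12a1, the related importer of the kidney, was the highest of the other carriers in brain with values in all mice, at 1.11 ± 1.03, with 2.57 in mouse W.

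Slc8a1, the sodium-calcium exchanger of cardiomyocytes, had -0.12, 0.05, -0.01 and 0.09 in heart, a mean of 0.001 ± 0.09 (interval -0.37 to 0.38). This mean averaged 0.40 with the mutant in Cy5 and -0.40 with it in Cy3. In brain Slc8a1 averaged 0.22 ± 0.26 and in muscle -0.39 ± 0.82, with mouse X at -1.50. Slc16a1, a lactate carrier, averaged 0.04 ± 0.01 in brain and -0.22 ± 0.37 in heart. In brain its 4 values lay between 0.03 and 0.06, the interval from the variance shared over all features was -0.30 to 0.39, and the orientations had 0.34 with the mutant in Cy5 and -0.26 with it in Cy3.

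Slc22a5, the carnitine carrier, had the lowest p of the muscle carriers, with 0.92, 0.64, 0.28 and 1.44 (mean 0.82 ± 0.49 or 1.77-fold the pool, interval 0.19 to 1.45, unadjusted p = 0.0202, adjusted p = 0.953 by limma). Its means were above the pool in all 4 muscles and on both dye orientations, at 1.06 and 0.58. The 2 arrays (Cy5, then Cy3 for the mutant) differed in sign in mice W (2.05, -0.20), X (-0.68, 1.95) and Y (1.58, -1.01). Only mouse Z had both above 0 (1.30, 1.57). In heart the values were 1.67, -2.18, -0.02 and 0.13, with no common sign. Slc9b1, a sodium-proton exchanger, had 0.52, 0.28, 0.56 and 0.82 in muscle, and Slc66a2 had 1.38, 0.71, 0.12 and 0.63. Where a gene has several clones, the clones behind a value can differ between mice. For Slc66a2 in muscle a single clone gave values in all 4 mice (0.03, 0.71, 0.12 and 0.63, mean 0.37 ± 0.34), and the value of mouse W also holds a clone measured in that mouse alone, at 2.73. Slc18a2, the vesicular monoamine carrier, had -1.29, -0.22, -0.62 and -0.53, and Slc36a2, a proton-coupled amino acid carrier, -1.65, -1.26 and -0.35 in the 3 muscles measured. The values of each of these 4 genes lay on 1 side of 0, which their choice by the lowest p favours. Each had an adjusted p of 0.953 by limma.

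In heart the lowest p was that of Slc15a2, a peptide carrier, with -0.46, -0.60, -0.94 and -0.70 (mean -0.67 ± 0.20 or 1.60-fold below the pool, interval -1.09 to -0.26, unadjusted p = 0.0081, adjusted p = 0.818 by limma). The orientations had -0.73 and -0.62. Brain and muscle values of Slc15a2 had both signs, with means of -0.30 ± 0.55 and -0.18 ± 0.63. Slc37a3, of the sugar phosphate exchanger family, was the highest of the other carriers in heart with 1.41, 0.96, 1.12 and -0.10. Its mean of 0.85 came from 1.79 with the mutant in Cy5 and -0.09 with it in Cy3.

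**Figure D2:**
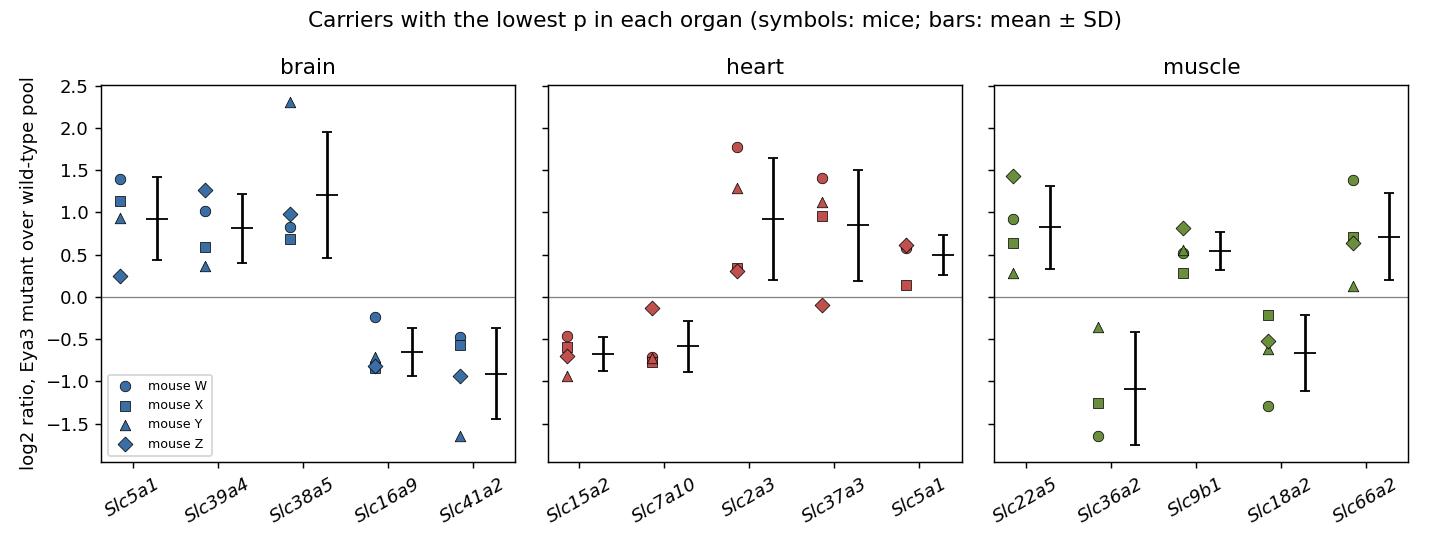
Log2 ratios (Eya3-/- over wild-type pool) of the 5 carriers with the lowest p in brain, heart and muscle; symbols are mice and bars give the mean ± SD. All measured mice of a carrier lie on 1 side of 0, except for Slc37a3 in heart with mouse Z at -0.10. Choice by the lowest p favours such carriers.

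Some large means of the other carriers held single spots beyond 10 in size. Slc9a9, an endosomal sodium-proton exchanger, had -1.03, -2.09, -7.25 and -0.15 in brain and -3.51, -1.05, 0.55 and -0.83 in heart, where it was the lowest of the other carriers in both organs. Single spots read -16.02 in brain and -17.21 in heart. With values beyond 10 taken as missing, the mean was -1.09 in brain and 0.32 in heart, on the other side of 0. Slc37a2 in muscle averaged -1.04 ± 2.25 with mouse X at -4.28, where 1 clone read -16.10, and its mean was 0.01 without such values. On the muscle array of mouse W with the mutant in Cy3, single spots of Slc5a1, Slc38a5, Slc6a2, Slc6a20b and Slc7a6 all read -15.55. In all, 36 of 5225 carrier values on the 24 arrays were beyond 10 in size, in 32 carriers.

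**Figure D3:**
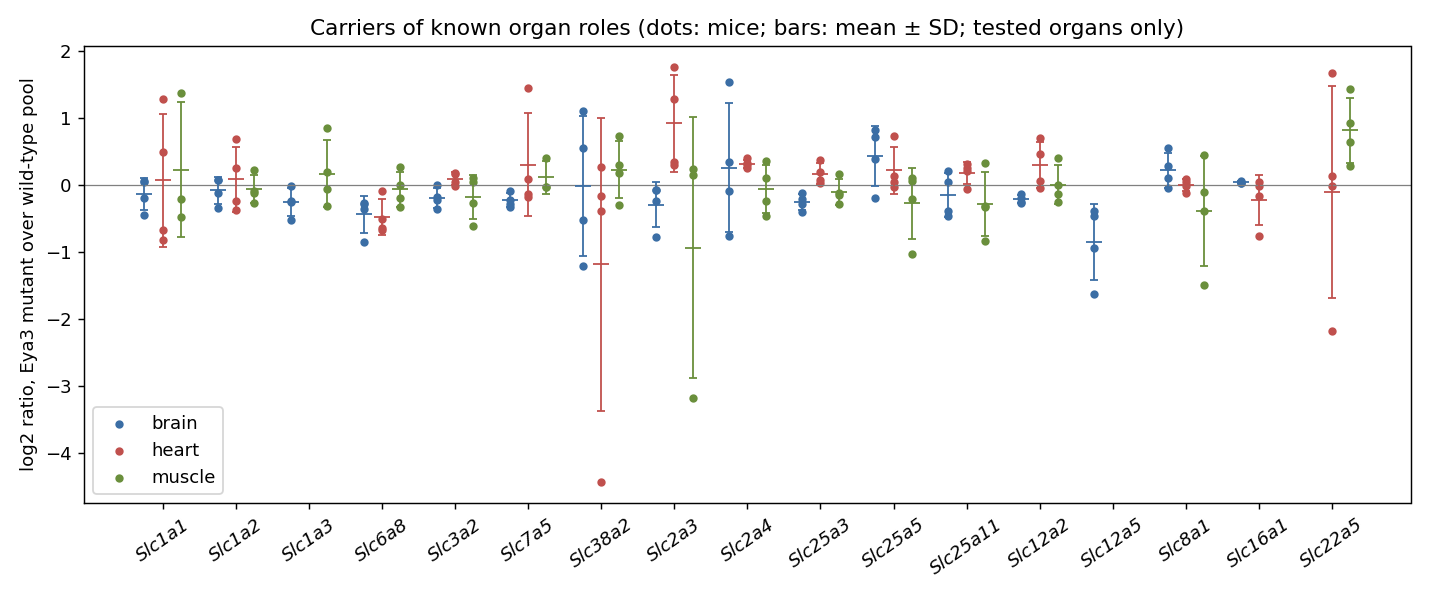
Log2 ratios (Eya3-/- over wild-type pool) of 17 carriers with known roles in these organs, in brain, heart and muscle where tested; dots are mice and bars give the mean ± SD. In 14 of the 46 sets of mice shown, all measured mice lie on 1 side of 0. Among these are Slc6a8 in brain and heart and Slc12a5 in brain. Most of the 14 are brain sets, and Slc22a5 is the only muscle set. Of all features with values in 4 mice, 10.1% in brain, 9.08% in heart and 6.86% in muscle lay above 0 throughout. Below 0 throughout were 14.2%, 7.76% and 4.71%.

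Values of different clones and of exchanged dyes were compared as a measure of how far a single mean can be read. Of the carriers with more than 1 tested clone, all clones had the same sign in 14 of 36 in brain, 18 of 33 in heart and 12 of 33 in muscle. For Slc1a2 in brain, 3 clones averaged 0.22 ± 0.17, -0.20 ± 0.24 and -0.26 ± 0.21. For Slc6a17, a vesicular amino acid carrier of neurons chosen after its values were seen, they averaged -0.53 ± 0.15, 0.34 ± 0.57 and -0.19 ± 0.02. Clones of the same gene therefore stood on both sides of 0 in the same mice.

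**Figure D4:**
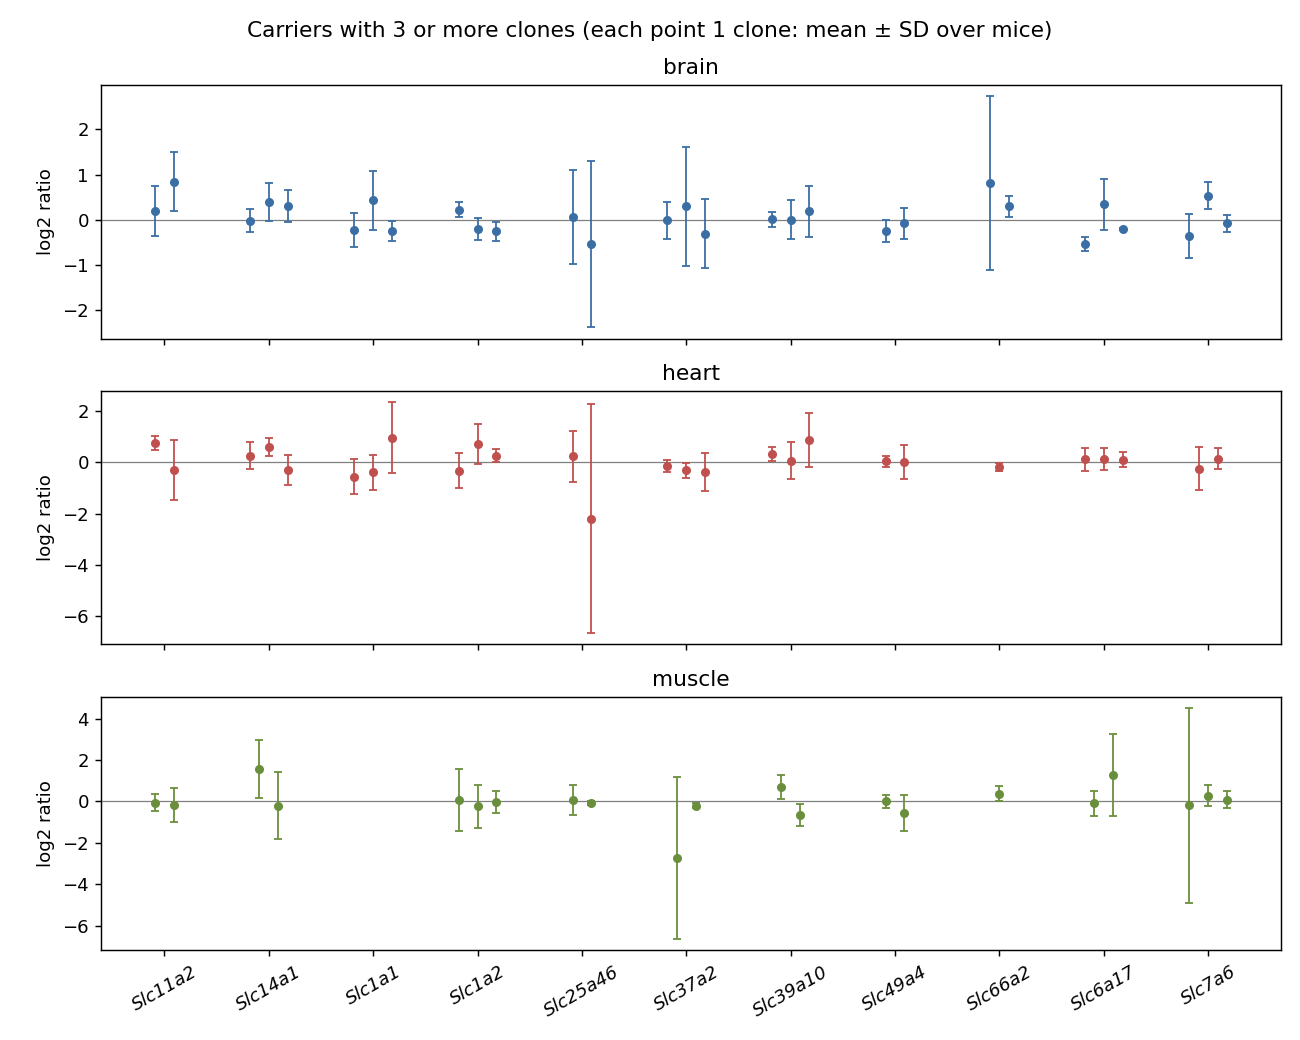
Mean log2 ratio ± SD over mice of the single clones of the 11 carriers with 3 or more clones, by organ; each point is 1 clone with values in at least 3 mice. Clones of Slc1a2 in brain range from -0.26 to 0.22.

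The mean with the mutant in Cy5 and the mean with the mutant in Cy3 had the same sign for 74 of 155 carriers in brain, 66 of 155 in heart and 67 of 147 in muscle. Across carriers, which are not independent replicates and share arrays, the 2 orientations had Pearson's r of 0.08 for brain, -0.23 for heart and -0.35 for muscle, and Spearman's rho of 0.04, -0.26 and -0.14. The carriers described above with similar means on both orientations (Slc38a5, Slc5a1 and Slc12a5 in brain, Slc15a2 in heart) were among the fewer than 1 in 2 that kept their sign.

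**Figure D5:**
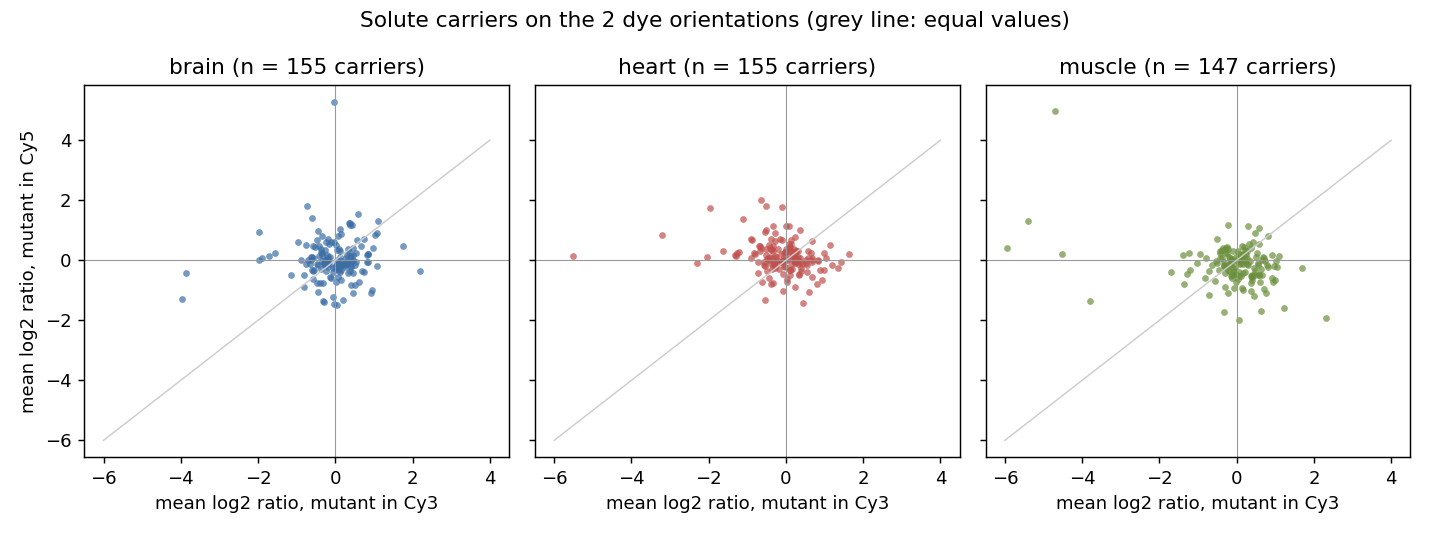
Mean log2 ratio of each tested carrier with the mutant in Cy5 (vertical axis) against that with the mutant in Cy3 (horizontal axis) in brain, heart and muscle; 1 point per carrier, and the grey line marks equal values. The points do not follow the line (r of 0.08, -0.23 and -0.35).

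Differences between organs were fitted for 137 carriers (brain minus heart), 131 (brain minus muscle) and 135 (heart minus muscle). None was called at an adjusted p under 0.10 by limma, as for all features (0% called in each pair), with lowest adjusted p of 0.445, 0.731 and 0.894. Unadjusted p was under 0.05 for 7 carriers (10.5% of all features), 7 (6.09%) and 6 (4.89%). With the mouse as a block these counts were 11, 7 and 3, and the shares of all features were not counted. Across carriers the mean ratios of 2 organs had r of 0.13, -0.12 and -0.12, a description over genes measured in the same mice.

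Between brain and heart the lowest p were those of Slc39a4 (0.81 ± 0.41 in brain, -0.57 ± 0.29 in heart, difference 1.38), Slc2a3 (-0.29 ± 0.33 in brain, 0.92 ± 0.72 in heart, difference -1.22) and Slc16a8 (0.28 ± 0.23 in brain, -0.37 ± 0.22 in heart, difference 0.66), each with an adjusted p of 0.445 by limma. Slc16a8, a lactate carrier known from the retinal pigment epithelium, had 0.07, 0.17, 0.59 and 0.31 in brain and -0.15, -0.31, -0.67 and -0.35 in heart. In all 3 genes every brain lay on 1 side of every heart, which their choice by the lowest p favours. Such separation was seen for 8 of the 137 carriers, and its share over all features was not counted.

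Between brain and muscle the lowest p were those of Slc25a1 (difference 0.82), Slc15a4, a lysosomal peptide and histidine carrier (0.93 ± 0.69 in 3 brains, -0.35 ± 0.38 in 4 muscles, difference 1.28), and Slc7a7, a carrier of cationic amino acids (1.07 ± 0.98 in brain, -0.26 ± 0.37 in muscle, difference 1.34), with an adjusted p of 0.731 by limma for each. The brain mean of Slc15a4 was -0.34 with the mutant in Cy5 and 2.20 with it in Cy3. Between heart and muscle they were Slc37a3 (0.85 ± 0.66 in heart, -0.54 ± 0.28 in 3 muscles, difference 1.38), Slc7a1 (difference -0.69) and Slc66a2 (-0.30 ± 0.54 in heart, 0.71 ± 0.52 in muscle, difference -1.01), with an adjusted p of 0.894. The values of Slc66a2 rest on differing clones in both organs.

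Other transporters and the enzymes beside the carriers were counted from lists. Of 16 listed ABC transporters, the ATP-driven pumps, 15 were tested in each organ, 7, 11 and 10 had a mean above 0 in brain, heart and muscle (medians -0.01, 0.20 and 0.07), and 0 had an unadjusted p under 0.05. Aquaporins, the water channels, had medians of -0.00 in brain (8 tested), 0.06 in heart (7) and -0.12 in muscle (7), with 1 gene above the pool at an unadjusted p under 0.05 in heart and 1 in muscle. Of the organic anion carriers of the Slco family, 1 of 5 in brain was above and 1 of 6 in heart below the pool at that p. Of 7 enzymes of glutamate, GABA and glutamine metabolism tested in brain, 2 were above and 2 below the pool at that p, and the median was -0.02. Genes of early glycolysis and of the insulin-responsive glucose carrier vesicle had medians of -0.10 for brain, 0.04 for heart and 0.29 for muscle over 5, 5 and 6 genes, with 0 at that p. Mitochondrial transport proteins outside Slc25, including the porins, had medians of -0.15, 0.14 and 0.01 over 6 genes in each organ, with 1 below the pool at that p in brain. Over all features, 8.7% in brain, 5.03% in heart and 3.42% in muscle had an unadjusted p under 0.05 by limma. No gene of these lists was called at an adjusted p under 0.10 in any organ.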

How the data were processed

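RNA of brain, heart and muscle of 4 male Eya3-/- mice was measured on 24 glass arrays of 20794 cDNA clones, 2 dye-swapped arrays per mouse and organ against a wild-type pool. Per the authors, scans were read with GenePix and normalization was done in MIDAS; its settings and filters are not given in the sources used here. The deposited values are log2 ratios, used as deposited. Swapped arrays were taken as turned already, since all 36 carrier values beyond 10 lie above 0 with the mutant in Cy5 and below 0 with it in Cy3. Correlations between arrays did not show such turning. For brain, the median r was -0.026 between the 2 swapped arrays of a mouse and 0.051 between arrays of equal dye. The heart medians were -0.063 and 0.046, and those for muscle -0.038 and 0.033. Whether every swapped array had been turned was not tested. The base of the logarithm and the direction are taken as likely. Signal over background is not given, so precision rests on the number of arrays and the spread between mice.

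Groups, mice and dyes came from the sample labels. The platform annotation gave no symbol for 8023 clones. Clones of a symbol and then arrays of a mouse were averaged, a mouse counting for a clone with both arrays. Each of 17053 features (symbols, or clones without one) with 3 mice or more was set against 0 with limma 3.58.1 in R 4.3.3 (lmFit, eBayes, Benjamini-Hochberg over all features of the organ) and called at an adjusted p under 0.10. The intervals printed are limma's 95% intervals. Organs were compared by limma without a block. Because the pool counts as 1 control sample, the spread among wild-type animals enters no p-value.

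All organs came from the same 4 animals and are thus paired, although deviations from the organ means correlated by -0.02 to 0.06 over features. The fit with the mouse as a replicate block was an alternative. Others were centring and scaling, values beyond 10 as missing, missing-value requirements, clone summaries, single dye orientations, 8 arrays with a random block, robust eBayes, an adjusted p under 0.05, leaving out the partner proteins, one-class SAM rewritten in R, and leaving out each mouse. Programs were tested on simulated data.

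Genes named are, per organ, the 5 lowest p, the highest and lowest mean of each class among carriers with values in 4 mice, carriers of known organ roles, and the 3 lowest p per pair of organs. Slc2a1, Slc25a4 and Slc25a20, also listed for known roles, were not analysed here, 1 further listed carrier is not reported, and Slc17a7 had too few values to be tested in any organ. Genes outside the rule were chosen after their values were seen. The carriers, lists and rules were chosen with earlier results of these data known. Promoter windows came from RefSeq on GRCm38.p6. Plots used Python 3.11.15 and matplotlib 3.10.9.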

Additional observations from a re-analysis of the deposited data

Results flagged for a closer look

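In 10 of 80 sets of 4 mice examined for the named carriers, 1 mouse lay far from the other 3 by Dixon's criterion, and chance sets apart about 1 in 20 where sets are not chosen by their values. Many of these were, as the highest or lowest mean of a class or the lowest p, so that this rate does not apply to them. In brain these were Slc25a41 with 3.11 in mouse W and Slc6a8 with -0.85 in mouse Y. In heart they were Slc38a2 with -4.44 in mouse X, Slc25a46 with -4.57 in mouse Y, Slc7a5 with 1.44 in mouse Z, Slc5a1 with 0.13 in mouse X and Slc7a10 with -0.13 in mouse Z. The values of Slc38a2 and Slc25a46 contain spots beyond 10 in size. For Slc5a1 and Slc7a10 the mouse set apart is the one nearest to 0, while the 3 other hearts lay close together. In muscle they were Slc6a20b with -10.02 in mouse W, whose value contains a spot of -15.55, Slc2a12 with 2.64 in mouse X and Slc25a35 with 1.47 in mouse Z.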

How the results depend on the processing

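The count of carriers called stayed at 0 in every organ and between organs under every alternative run, with the mouse as a replicate block (0 in each pair of organs) and without each mouse included. Elsewhere among the features, 2 were called in brain and 2 in heart with 8 arrays and a random block, 1 in brain and 2 in heart by SAM, and 1 in heart with values on all 8 arrays required; no carrier was among them. The median of all carriers was -0.03 in brain, against -0.011 with the mutant in Cy3 only, and on leaving out 1 mouse ran from -0.042 to -0.0034, the value without mouse W. In heart the median of 0.02 became -0.086 with the mutant in Cy3 only, and ran from -0.011 without mouse Y to 0.07 without mouse W. In muscle it ran from -0.094 to -0.01, the value without mouse W. The sign turned on 1 of the orientations for 40 of 88 values of named carriers in an organ. Of those with an unadjusted p under 0.05 over both orientations 4 turned: with the mutant in Cy5 only, Slc41a2 in brain had 0.083, Slc15a4 in brain -0.34 and Slc6a8 in heart 0.26, and with the mutant in Cy3 only, Slc37a3 in heart had -0.093. The cause was not tested. Of 1220 recomputed gene values, 83 changed sign and 0 were called (lowest adjusted p 0.317 by limma). The 4 mice and 2 arrays per mouse limit what can be seen: the median 95% interval of a carrier reached 0.59 to either side of its mean in brain and heart and 0.72 in muscle.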
